A study of Mus musculus with 6 samples.

Results

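Mouse dental mesenchymal cells (mDMCs) of the second passage in culture (P2) were compared with the same cells fresh from the tooth germ (P0) across 11386 genes. The comparison takes 4 of the 6 RNA sequencing libraries of the study, chosen by their passage labels, with 2 libraries of P0 and 2 of P2. All cells came from molar germs of ICR mice, an outbred strain, at embryonic day 14.5, and the labels name no mutation or transgene. P0 cells were the mesenchyme of the germ, separated from its epithelium with dispase, dispersed with trypsin and taken without culture. P2 cells had been grown as a monolayer in DMEM with fetal bovine serum and passaged at near confluence, once to the first passage (P1) and once more to P2. The 2 P1 libraries add to the estimate of the spread between libraries, on which the p-values rest. Their values are otherwise given beside P2 without a test, since both passages share the P0 libraries as their control. No sort of the cells is described, so P0 holds whatever cells the dissected mesenchyme held. The sources used here do not say how many embryos were pooled or whether the 2 libraries of a passage were separate cultures, so p-values measure only the spread between these libraries, which may be technical.

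Levels are given in scaled units. A scaled unit is a millionth of the summed normalized values of a passage, and corresponds to 18.72 on the deposited scale. The deposited values had been quantile normalized, the depth behind them is unknown, and which of 2 library values belongs to replicate 1 cannot be told. A log2 fold change is the P2 minus P0 difference on the log2(scaled value + 1) scale, and is too small for genes of low level. A gene was called higher or lower where limma's moderated test gave a Benjamini-Hochberg adjusted p under 0.05 over all genes and the change was at least 2-fold. "Rose" and "fell" are used below only of called genes. With 2 libraries against 2, an exact permutation test of a single gene cannot go below a two-sided p of 0.333, so each call rests on the spread that limma borrows across genes. Every gene in the tables had at least 101 deposited units, or 5.4 scaled units, in at least 2 libraries. A gene that culture cells lack is therefore present only because of its P0 level, and its fall is partly built into the tables. The same holds for the rise of a gene that P0 cells lack, which is present only because of its level in culture. Under 1 scaled unit were 157 of the genes called higher, in P0, and 198 of those called lower, in P2. The most abundant genes share a highest value of 7149 scaled units, so a change that ends there has no exact size. Some high levels below it also recur, such as about 3428 for *Postn* in P0 and for *Lox* and *Col8a1* in P2. After quantile normalization, equal values in 2 libraries are therefore no proof of close duplicates, and fold sizes at such levels are approximate.

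At embryonic day 14.5 the mouse molar is at the cap stage. Its mesenchyme, which derives from the cranial neural crest, exchanges BMP, FGF, Wnt and Hedgehog signals with the overlying epithelium and gives rise to the dental papilla, with its odontoblasts and pulp, and to the follicle. Fibroblast-like cells that are moved from tissue to stiff plastic in serum commonly assemble stress fibres and express smooth muscle genes. Serum response factor (SRF) and the YAP and TAZ partners of TEAD factors control many of those genes.

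The transcriptome of P2 differed widely from that of P0, in both directions about equally. In all, 1596 of 11386 genes were called higher in P2 (14.0%) and 1638 lower (14.4%), which is 28.4% in either direction, and the median log2 fold change of all genes was 0.007. The genes called higher held 6.58% of the P0 total and 26.5% of the P2 total, and those called lower held 25.8% of the P0 total and 7.73% of the P2 total. A change of at least 8-fold was found for 236 higher and 240 lower genes, and one of at least 64-fold for 17 and 15. None of the called genes had overlapping library values, against 84.9% of all genes without overlap. For 1282 of the higher and 1336 of the lower genes even the closest libraries of the passages were at least 2-fold apart. At the other end, 6087 genes (53.5%) had a 95% interval that lay within 2-fold in either direction, while 2065 genes (18.1%) were neither called nor bounded in this way. Calls were most frequent among the weakest genes, with 20.0% higher and 20.4% lower in the lowest of 5 level classes against 10.5% and 10.3% in the next to highest. The filter bears on this lowest class, which reaches down to a mean of 2.32 scaled units. The duplicates were closer in P0, with a median log2 difference of 0.098, than in P2, with 0.170.

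**Figure D1:**
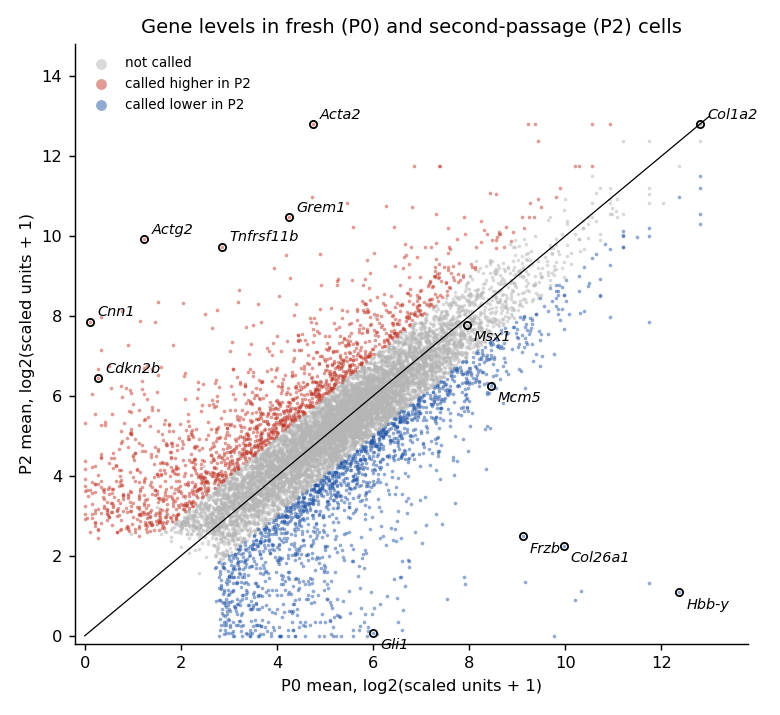
Mean level of each gene in P0 (x axis) and in P2 (y axis), both as log2(scaled units + 1), with genes called higher in P2 in red, genes called lower in blue, genes not called in grey and equal levels on the black line. Called genes lie on both sides of the line, and *Acta2* and *Col1a2* lie at the shared highest value of P2.

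The 12 largest rises included smooth muscle genes, and the 12 largest falls included 5 globin genes. *Actg2*, the enteric smooth muscle actin, had 1.33 and 1.39 scaled units in P0 and 610 and 1326 in P2, a log2 fold change of 8.57 (standard error 0.36, limma adjusted p = 2.65e-05). *Acta2*, the vascular smooth muscle actin, had 19.8 and 32.0 in P0 and stood at the shared highest value in both P2 libraries and both P1 libraries. *Cnn1*, the smooth muscle calponin, went from 0.0534 and 0.107 to 187 and 276. In each of these genes the lowest P2 library lay far above the highest P0 library. Other large rises were those of *Ahnak2*, a large scaffold protein gene (log2 fold change 7.64), *Anxa8*, an annexin (7.36), *Tnfrsf11b*, the decoy receptor of RANKL (6.88), *Cemip*, a gene of hyaluronan breakdown (6.80), *Wisp2*, a CCN protein (6.75), *Jph2*, a junctophilin (6.70), *Lmod1*, a leiomodin (6.40), *Ephx1*, an epoxide hydrolase (6.38), and *Klhdc8a* (6.36). *Tnfrsf11b* had 5.66 and 6.84 in P0, 325 and 368 in P1 and 847 in both P2 libraries. Among the falls, *Col26a1*, a collagen chain, had 941 and 1053 in P0 and 3.21 and 4.27 in P2 (log2 fold change -7.72). *Tmem132c* fell by 7.81 on the log2 scale, *Tril* fell by 6.66, *Frzb*, a secreted Wnt antagonist, fell by 6.63, and *Tnfrsf19*, a receptor of the TNF family, fell by 6.62. *Wdr86* (-6.47) and *6330403K07Rik* (-6.44) completed the 12 largest falls, of which the other 5 were globin genes. In bulk RNA fewer cells of a type and less RNA per cell cannot be told apart. At the other extreme, 25 genes were listed at 0 in both P2 libraries and 9 in both P0 libraries. Of the latter *Cbr2*, a carbonyl reductase gene chosen after its values were seen, was the highest in P2, with 32.9 and 45.2.

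**Figure D2:**
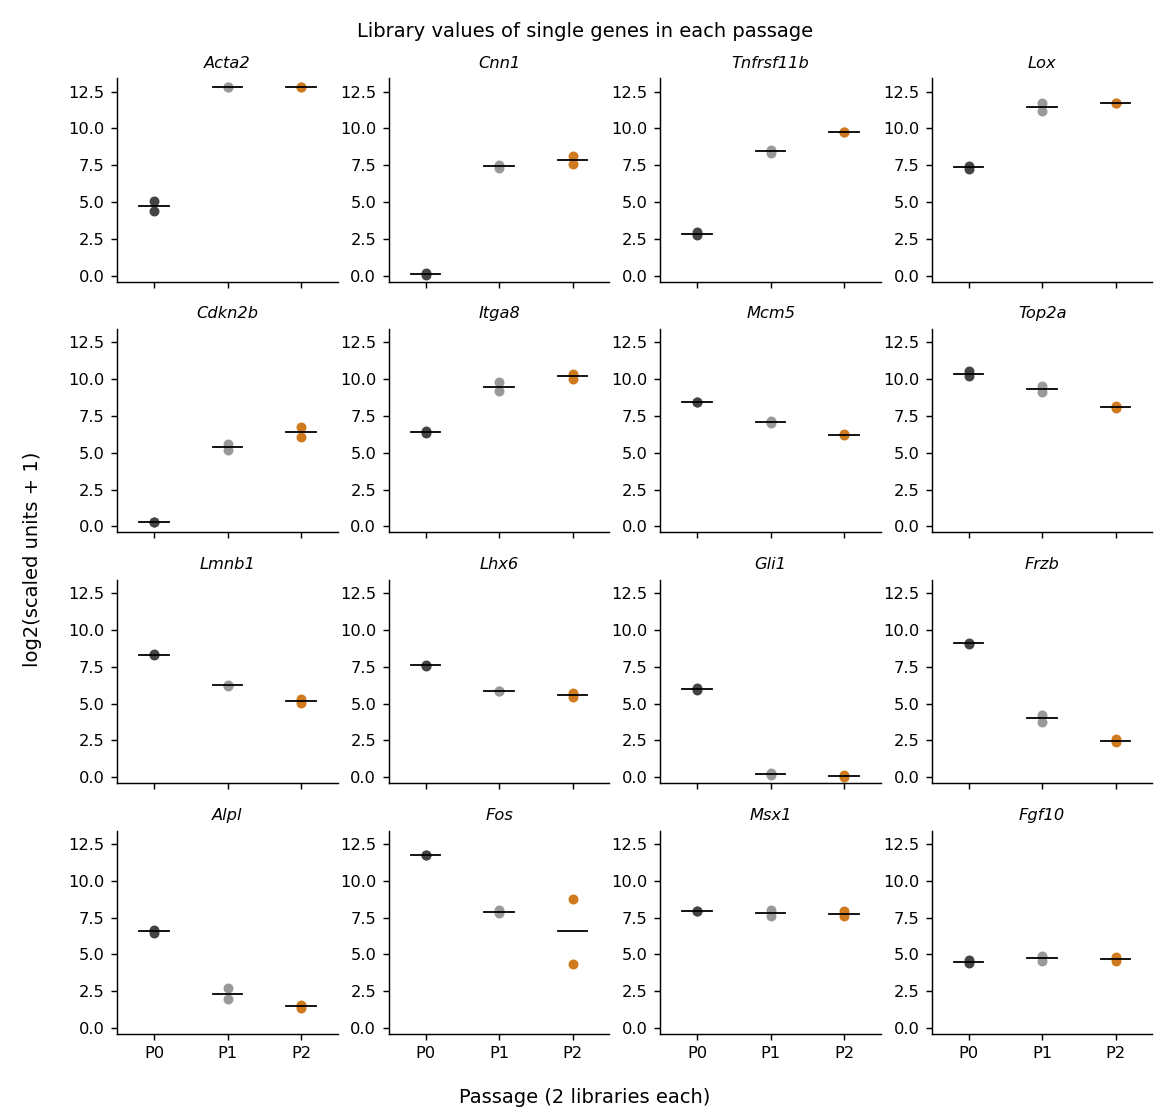
Library values of 16 genes in P0, P1 and P2 as log2(scaled units + 1), with 2 points per passage and a line at their mean. Of the 16 genes only *Fgf10* has overlapping P0 and P2 points, and the P2 points of *Fos* lie far apart.

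Contractile genes rose in 24 of 30 cases, the highest share of the 57 lists described here. Of these contractile genes and SRF or YAP targets none was called lower (of all genes, 14.0% were called higher and 14.4% lower), and their median log2 fold change was 2.30, beside 2.09 in P1. *Tagln*, an actin-binding protein of smooth muscle, had 25.3 and 26.1 scaled units in P0 and 1684 and 2342 in P2 (log2 fold change 6.22, standard error 0.37, adjusted p = 7.16e-05 by limma). *Myh11*, the smooth muscle myosin heavy chain, had 1.39 and 2.35 in P0 and 37.3 and 146 in P2, so the passages were apart but the P2 libraries also differed from each other (log2 fold change 4.73, standard error 0.65). *Ankrd1*, a target of YAP, was listed at 0 in 1 P0 library and had 11.8 and 18.8 in P2. The members that did not pass the threshold were mostly abundant in both passages. *Srf* itself had 123 and 138 in P0 and 99.9 and 119 in P2, and *Cyr61*, another YAP target, had 700 and 1001 in P0 and 735 and 941 in P2, so the passages overlapped for the latter. *Tpm4*, a tropomyosin, was higher by 0.79 (limma adjusted p = 0.000765), which is under 2-fold. *Flna*, a filamin, was at 1940 in both P0 libraries and at the shared highest value in both P2 libraries.

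Promoter sequences of some of these genes are shown because binding motifs of SRF and TEAD factors can be read in them. They are taken from RefSeq (build GRCm38.p6) and lie upstream of the start site, 5′ to 3′ on the strand of the gene. Capitals mark the CArG box, the motif bound by SRF, which starts 56, 161 and 227 bases before the start site of the calponin gene *Cnn2*, the myosin light chain gene *Myl9* and the vinculin gene *Vcl*.
*Cnn2*, chr10:79988519-79988578, plus strand: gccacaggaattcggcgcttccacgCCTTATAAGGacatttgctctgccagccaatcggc
*Myl9*, chr2:156775278-156775337, plus strand: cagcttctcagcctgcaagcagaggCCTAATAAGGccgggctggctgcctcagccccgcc
*Vcl*, chr14:20929148-20929205, plus strand: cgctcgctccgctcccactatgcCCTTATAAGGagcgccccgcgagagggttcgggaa
These genes had log2 fold changes of 1.53, 2.80 and 2.65. *Vcl*, whose protein sits in focal adhesions, had 172 and 202 scaled units in P0 and 1174 in both P2 libraries, and *Myl9* had 85.9 and 87.6 against 581 and 641. In the next sequences capitals mark GGAATG, the motif of TEAD factors, in *Acta2*, *Lmod1* and, at 2 places, *Ankrd1*.
*Acta2*, chr19:34255489-34255544, minus strand: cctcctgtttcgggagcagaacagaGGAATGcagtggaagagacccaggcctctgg
*Lmod1*, chr1:135324658-135324713, plus strand: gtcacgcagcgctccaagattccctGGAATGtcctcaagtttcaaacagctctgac
*Ankrd1*, chr19:36119937-36120079, minus strand: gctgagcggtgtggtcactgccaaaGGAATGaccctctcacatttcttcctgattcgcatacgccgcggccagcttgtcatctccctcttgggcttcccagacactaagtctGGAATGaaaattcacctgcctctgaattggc
On either strand of the 300 bases from 250 before to 50 after the start, a CArG box was found in 4 of the 19 contractile genes with a matched promoter, and in 1.63% of the 32851 promoters of the table. GGAATG was found in 9 of the 19 and in 14.7% of all promoters. The list was drawn up in part from known SRF and YAP targets, so these shares are partly built in.

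Integrins rose in 9 of 18 cases and annexins in 7 of 9, and cadherins fell more often than they rose. Of 18 integrin genes 9 were called higher and 2 lower, with a median log2 fold change of 1.43. *Itga8*, an integrin of mesenchyme and smooth muscle, had 82.0 and 89.3 scaled units in P0, a P1 mean of 738 and 1053 and 1331 in P2 (log2 fold change 3.77, standard error 0.22), and *Itga7*, a laminin receptor of muscle, rose by 3.47. *Itga9* (-3.15) and *Itga6* (-2.83) fell. *Itga6*, which pairs with *Itgb4* in epithelia, had 139 and 184 in P0 and 20.8 and 22.6 in P2. *Itgb4* went the other way and rose by 2.46, from a P0 mean of 0.588 to a P2 mean of 7.88. The annexins, calcium-dependent membrane-binding proteins, all lay above 0, and 7 of 9 were called higher. *Anxa1* had 104 and 117 in P0 and 1684 in both P2 libraries. *Anxa2* and *Anxa6* were not called. Of 7 *S100* genes, which encode small calcium sensors, 4 were called higher (3 in every fit without 1 value), and *S100a4*, a fibroblast marker, had 17.0 and 19.4 in P0 and 441 and 553 in P2. Of 32 cadherin and protocadherin genes only 3 were called higher and 13 lower (median -0.55). *Cdh11*, the main cadherin of mesenchyme, had 1683 and 2341 in P0 and 1508 in both P2 libraries and was not called (log2 fold change -0.40, limma adjusted p = 0.0768). *Cdh5* and *Pcdh12*, with the largest falls of this family, are endothelial genes, and *Cdh5* was listed at 0 in P2. *Cdh12* and *Pcdh20*, which are better known from neurons, fell as well (-3.97 and -3.25).

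Collagen chains rose and fell in equal numbers. Of 31 chains 10 were called higher and 10 lower, each 32.3%, beside 14.0% and 14.4% of all genes. The median was 0.000, while the sum over the list was 172% of that of P0. *Col1a1*, the major chain of type I collagen, had 674 and 698 scaled units in P0 and 3425 and 7149 in P2 (log2 fold change 2.85, standard error 0.32). Its partner *Col1a2* was at the shared highest value in all libraries, so the tables cannot show a difference. *Col8a1*, a network collagen, went from 110 and 117 to 3428 in both P2 libraries (log2 fold change 4.90), *Col5a1* rose by 1.55, and *Col3a1* (-0.53) and *Col5a2* (1.08), each with 1 P2 library at the highest value, were not called. The 5 largest falls after that of *Col26a1* were in the chains named next. *Col13a1*, *Col25a1* and *Col23a1*, which span the plasma membrane, fell (-5.46, -4.73 and -4.69), *Col9a2*, a chain of cartilage, fell by 4.95, and *Col15a1* fell by 4.04.

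In the list of enzymes that mature and cross-link collagen 11 of 23 genes were called higher and 1 lower, with a median of 0.86. Of all genes 14.0% were called higher and 14.4% lower. *Lox*, the lysyl oxidase that starts cross-linking, had 154 and 174 scaled units in P0 and 3427 in both P2 libraries (log2 fold change 4.38, standard error 0.18), and *Loxl4*, its relative, rose from 1.39 and 1.50 to 54.1 and 65.4. *Pcolce*, an enhancer of procollagen cleavage, rose by 2.12. *P4hb* and *Serpinh1*, abundant chaperones of procollagen, were not called, at -0.09 and 0.67. Matrix proteases and their inhibitors rose in 17 of 28 genes and fell in 3 (median 1.74). Among them *Pappa*, which cleaves IGF-binding proteins, went from 5.34 and 6.20 to 255 and 314, and *Htra1*, a serine protease, from 10.2 and 20.9 to 269 and 456. *Mmp9*, a gelatinase, fell from 98.5 and 113 to 1.71 and 3.63, and *Mmp2*, the other gelatinase, was not called (0.26). The related pair *Pappa* and *Pappa2* moved in opposite directions, and *Pappa2* fell by 2.73. Of 26 genes of proteoglycans and hyaluronan 12 (46.2%) were called higher and 4 (15.4%) lower, the latter near the share of all genes. *Fmod*, fibromodulin, rose by 4.08 and *Aspn*, asporin, by 2.49. Among 19 basement membrane genes 11 (57.9%) were called higher and 3 (15.8%) lower, the latter again near the share of all genes (median 1.07). *Sparc*, a collagen-binding matricellular protein, was at 594 in both P0 libraries and at the shared highest value in both of P2, and *Fn1*, fibronectin, had 280 and 323 in P0 and 998 and 1678 in P2.

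**Figure D3:**
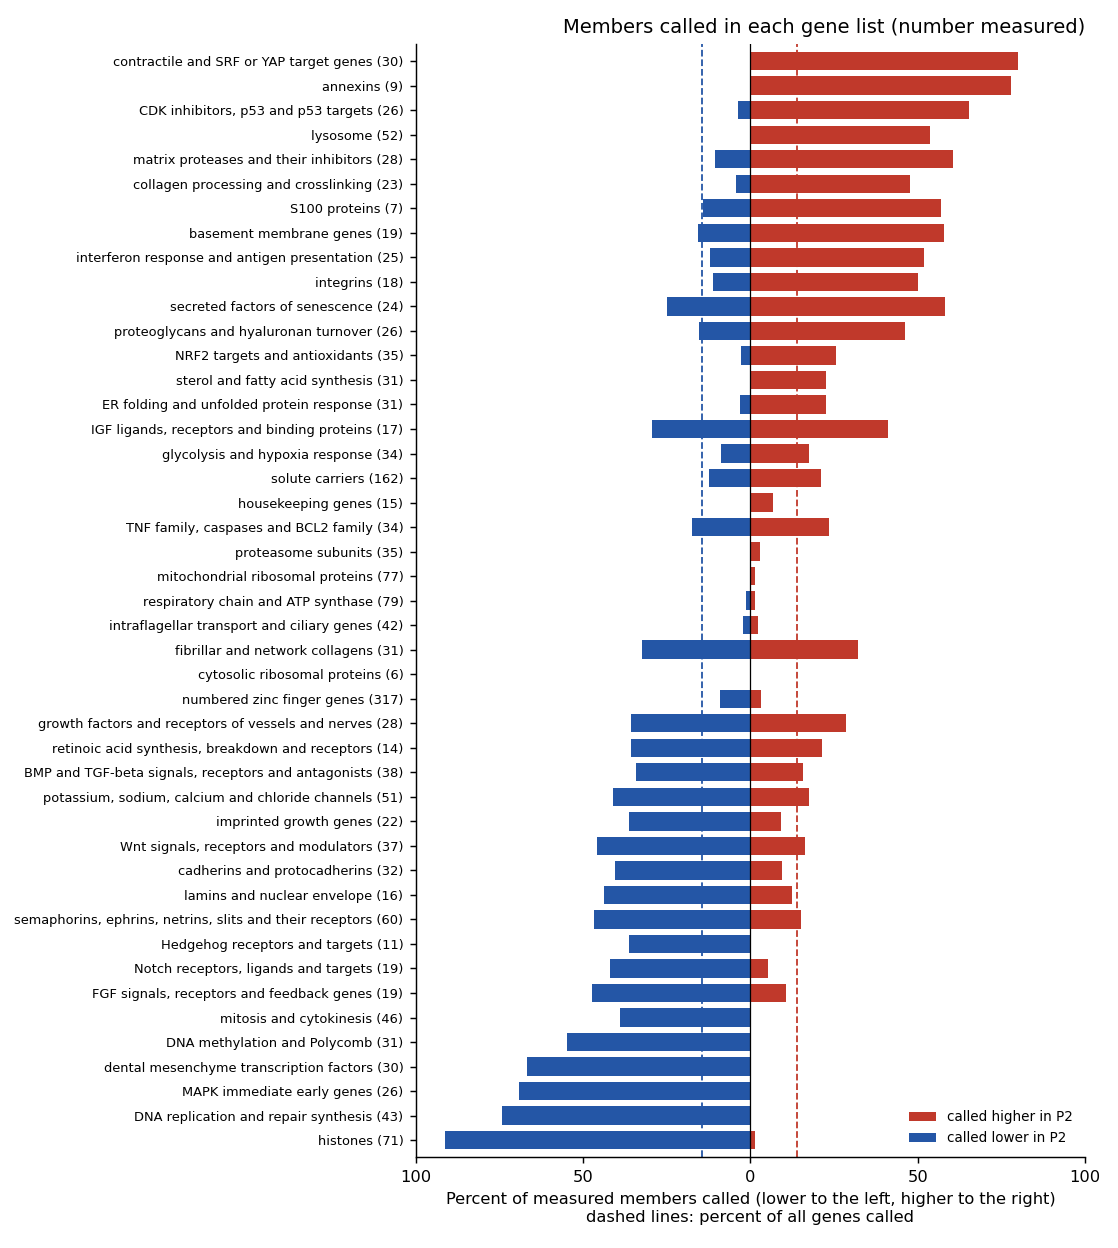
Percent of the measured members of each gene list that were called higher in P2 (red, to the right) or lower (blue, to the left), with the number measured in brackets and dashed lines at the 14.0% and 14.4% of all genes. Contractile genes (24 of 30 higher) stand at the top, histones (65 of 71 lower) at the bottom, and mitochondrial ribosomal, respiratory chain and proteasome genes near 0.

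Transcription factors of the dental mesenchyme were lower or level in P2, and none was called higher. Of 30 measured factors 20 (66.7%) were called lower, against 14.4% of all genes. All 30 had a log2 fold change below 0, and the median was -1.56, beside -1.31 in P1. *Gli1*, a target and effector of Hedgehog signaling, had 60.6 and 65.3 scaled units in P0 and 0 and 0.107 in P2 (log2 fold change -5.92, standard error 0.17, adjusted p = 1.17e-05 by limma). *Sp7*, which is needed for bone and dentin formation, had 26.8 and 30.9 in P0 and 0.214 and 0.321 in P2. *Lef1*, the Wnt effector without which teeth arrest at the bud stage, went from 31.0 and 32.4 to 1.28 and 1.60, and *Osr2*, which limits the tooth field, from 43.0 and 47.9 to 3.37 and 4.27. *Runx2* and *Dlx1*, factors of odontoblast precursors and of molar identity, fell (-2.23 and -2.20), as did *Lhx6* (-2.04) and *Pax9* (-1.71). In all of these the libraries of the passages were well apart. Of the 10 factors that were not called, the 4 with the highest levels are given. *Prrx1* had 1330 and 1507 in P0 and 940 and 1053 in P2 (-0.51), *Msx1* had 245 and 247 against 197 and 242 (-0.17), *Lhx8* had 176 and 201 against 132 and 136 (-0.48), and *Barx1*, a molar factor, had 132 and 138 against 105 and 107 (-0.34). *Msx1* and *Pax9* are both required for teeth to pass the bud stage, and in P2 the first stood at 89.2% and the other at 30.1% of its P0 mean.

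Signals of tooth development changed member by member. Among 38 BMP and TGF-beta genes 6 (15.8%) were called higher and 13 (34.2%) lower, with a median of -0.05. Of all genes 14.0% were called higher and 14.4% lower. *Grem1*, a secreted BMP antagonist, had 17.2 and 18.7 scaled units in P0 and 1326 and 1504 in P2 (log2 fold change 6.22, standard error 0.11), and *Inhbb*, an activin subunit, rose by 3.91. Another antagonist, *Sostdc1*, went the other way, from 95.7 and 105 to 1.07 and 1.71. Among the ligands, *Bmp2* had 12.2 and 14.0 in P0 and 1.92 and 2.03 in P2, *Bmp7* was listed at 0 in P2 after 9.19 and 10.5 in P0, and *Bmp6* (-3.29) and *Gdf10* (-3.62) fell. *Bmp4*, the mesenchymal BMP that acts with *Msx1*, had 61.9 and 76.0 in P0 and 99.3 and 157 in P2 and was not called (0.86, limma adjusted p = 0.0271), except without its lower P2 value (1.19). Of 19 FGF genes 2 were called higher and 9 lower (median -0.98). *Fgf3*, a mesenchymal ligand, had 15.6 and 23.8 in P0 and stood at 0 in all P1 and P2 libraries, *Fgf10*, its partner, had 20.0 and 23.2 against 22.5 and 27.9, and *Fgf7* rose from 9.19 and 11.2 to 56.6 and 77.9. *Dusp6* and *Spry1*, which are induced by FGF signaling and dampen it, fell (-2.03 and -1.86).

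Of 37 Wnt genes 6 were called higher and 17 lower, with a median of -0.60. *Axin2*, the most widely used target gene, had 62.1 and 66.5 scaled units in P0 and 0.588 and 0.641 in P2, and *Wif1*, a secreted inhibitor, went from 47.2 and 56.5 to 0.107 and 0.267. *Fzd10* (-3.98) and *Lgr5* (-3.75), both receptors, fell. *Fzd1* was not called (-0.72). Of 11 Hedgehog genes none was called higher and 4 lower (median -0.82). *Ptch1*, the receptor and a target, had 87.9 and 101 in P0 and 4.01 and 4.81 in P2. In the Notch list 1 of 19 genes was called higher, a call lost in a fit without 1 value, and 8 lower. *Notch4* and *Dll4*, which are known from endothelium, and *Hey1* were among the falls, and *Jag1* had 174 and 184 in P0 and 262 and 289 in P2 without being called. Of 14 genes of retinoic acid 3 (21.4%) were called higher and 5 (35.7%) lower, beside 14.0% and 14.4% of all genes. *Aldh1a2*, which makes retinoic acid in the embryo, fell from 78.3 and 92.0 to 1.50 and 1.87, and *Cyp26b1*, which degrades it, from 67.3 and 71.8 to 3.58 and 5.24, while *Crabp1*, a binding protein, rose by 1.50 (0.85 to 2.15 without 1 value, with the call lost in 3 of 4 fits). Guidance cues fell in 28 of 60 genes and rose in 9 (median -0.88). *Efnb3*, an ephrin, had 55.5 and 62.0 in P0 and 0.107 and 0.214 in P2, and *Sema3c*, a secreted semaphorin, went the other way, from 15.1 and 19.4 to 612 and 847. Axon and vessel growth factors were split, with 8 of 28 higher and 10 lower, or 5 and 8 when a gene had to keep its call without any single value. *Mdk*, midkine, fell from 203 and 207 to 13.7 and 17.0, *Bdnf* rose from 6.73 and 7.37 to 22.3 and 40.2 (1.54 to 2.36 without 1 value, with the call lost in 3 of 4 fits), and *Vegfa* had 122 and 126 in P0 and 85.0 and 95.5 in P2 (-0.46). *Pdgfra* fell by 2.39 and *Pdgfd*, a ligand of the beta receptor, rose by 2.53. In the IGF list 7 of 17 genes were called higher and 5 lower, but only 1 of the 5 in every fit without 1 value. *Igfbp2* went from 157 and 158 to 1506 in both P2 libraries.

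Genes of mineralization changed in both directions. Of 11 osteoblast and odontoblast markers 3 (27.3%) were called higher and 7 (63.6%) lower, beside 14.0% and 14.4% of all genes (median -2.23). *Alpl*, the alkaline phosphatase of mineralizing cells, had 88.4 and 100 scaled units in P0 and 1.60 and 1.92 in P2, and *Ibsp*, bone sialoprotein, had 48.5 and 54.4 in P0, a P1 mean of 9.13 and 0 and 0.214 in P2. *Pth1r*, the receptor of parathyroid hormone, fell by 2.89. *Spp1*, osteopontin, rose from 18.8 and 22.8 to 95.4 and 241, and *Col1a1* rose as given above. *Postn*, periostin, was at 3428 in both P0 and at 2342 in both P2 libraries and was not called (-0.55).

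Measured markers of red cells, endothelium, dental epithelium and Schwann cells fell in most cases. Those of some other cell types were called in both directions. All genes together were called higher in 14.0% and lower in 14.4%. The lists began with 22 names for dental epithelium, 21 for endothelium, 20 for macrophages, 17 for red cells and 11 for Schwann cells. Names beyond the counts given below had no measured gene. A marker that culture cells lack entered only through its P0 level and could only fall. The share of falls is therefore no test of whether a cell type was lost. General mesenchyme markers were high in both passages, with sums over 8 genes of 18910 to 19130 scaled units in P0 and 18910 to 26590 in P2. Most of the P0 sum lay in *Col1a2* and *Col3a1*, both at the shared highest value in P0, as *Col1a2* was in P2. The sums therefore say little about the other members, and the median log2 fold change of the list was -0.25. *Vim* rose by 1.19 and *Pdgfra* and *Twist1* were the only 2 of the 8 that fell. Of 10 red cell markers 9 were called lower, and their sum went from between 10070 and 14330 to between 87.0 and 174, which was 1.07% of P0 by the means. *Hbb-y*, an embryonic globin, had 3428 and 7148 in P0, the second at the highest value, and 0.321 and 1.92 in P2, and *Hba-a2* was listed at 0 in P2. *Tfrc*, the transferrin receptor of all dividing cells, made up most of the P2 sum and was not called. Endothelial markers were lower in 16 of 19 (median -4.13). *Pecam1* went from 93.4 and 102 to 0.160 and 0.962, *Cdh5* and *Tie1* were listed at 0, and *Kdr* had 0.908 and 2.67 in P2. *Ptprb*, a phosphatase known from vessels, rose from 8.01 and 8.33 to 271 and 379 and made up most of the P2 sum of 362 to 535. *Flt1* and *Eng* were not called. Of 8 dental epithelium markers 7 were called lower, and the defining keratins *Krt14*, *Krt15* and *Krt17* were listed at 0 in P2. Their P0 libraries differed, with 20.7 and 48.9 for *Krt14* and 8.12 and 30.0 for *Krt5*. *Perp*, also a p53 target, was the marker that rose (4.54). Macrophage markers were lower in 5 of 8, with *Csf1r* at 17.2 and 18.5 in P0 and 2.99 and 3.10 in P2, and *Lyz2* was higher (7.26 and 8.07 against 24.5 and 49.3). Of 5 Schwann cell markers 4 were called lower, with *Ngfr* going from 88.7 and 93.0 to 0.214 and 0.321, while *Mbp* rose by 2.30. Among 8 pericyte markers *Rgs5* fell from 101 and 112 to 2.14 and 2.46, while *Cspg4*, NG2, rose by 2.42. Neuron, cartilage and skeletal muscle markers were each called in both directions, 2 genes higher and 2 lower, and of 5 adipocyte markers 1 was called higher and 2 lower. In every fit without 1 value only 1 muscle marker stayed higher and 1 lower, 1 cartilage and 1 pericyte marker stayed higher, and no adipocyte marker stayed lower. The part of these cells in the falls of shared genes, such as *Notch4*, *Dll4* or *Cdh5*, was not tested.

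Genes of DNA replication fell in most cases. All 43 replication genes had log2 fold changes below 0, and the median was -1.41, beside -0.75 in P1. Called lower were 32 (74.4%) and higher none, against 14.4% and 14.0% of all genes. *Mcm5*, a subunit of the replicative helicase, had 347 in both P0 libraries, a P1 mean of 136 and 71.5 and 77.9 in P2 (log2 fold change -2.20, standard error 0.09, limma adjusted p = 2.53e-05). *Mcm4* went from 306 and 349 to 62.6 and 67.1 and *Pcna*, the sliding clamp, from 427 and 439 to 87.1 and 108. *Lig1* (-2.10), a DNA ligase, *Gins1* (-2.21) and *Uhrf1* (-2.04) fell. *Rrm1*, a subunit of ribonucleotide reductase, was lower by less than 2-fold (-0.74). Mitotic genes were lower to a smaller degree, with 18 of 46 called lower, none higher and a median of -0.88, beside -0.11 in P1. *Top2a*, topoisomerase II, had 1173 and 1507 in P0, a P1 mean of 644 and 260 and 293 in P2. *Kif11*, a spindle motor, went from 231 and 260 to 56.3 and 65.0 and *Mki67* from 229 and 252 to 92.5 and 96.9. *Kif20a*, a motor of cytokinesis, had 127 and 141 against 113 and 120 and was not called.

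Upstream sequences of replication and mitotic genes are shown for the motifs that such promoters are known for. In *Mcm5* and *Mcm6* capitals mark the E2F motif, searched as TTTCCCGC and TTTGGCGC on both strands.
*Mcm5*, chr8:75109335-75109392, plus strand: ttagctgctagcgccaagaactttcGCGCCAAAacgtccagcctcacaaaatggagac
*Mcm6*, chr1:128359720-128359840, minus strand: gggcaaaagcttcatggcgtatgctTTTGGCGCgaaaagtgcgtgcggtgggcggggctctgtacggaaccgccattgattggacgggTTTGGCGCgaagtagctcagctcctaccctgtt
*Mcm6* held the motif at 2 places, the nearer one 47 bases before the start, and fell by 1.94 on the log2 scale. In *Kif11* and *Mki67* capitals mark the cell cycle homology region (CHR), searched as TTTGAA and TTCGAA on both strands, through which mitotic genes are repressed outside G2 and M phase. TTTGAA is also contained in a LEF/TCF motif, CTTTGAA, and *Mki67* held it at 2 places.
*Kif11*, chr19:37376338-37376381, plus strand: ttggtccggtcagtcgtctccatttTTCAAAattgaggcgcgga
*Mki67*, chr7:135716447-135716520, minus strand: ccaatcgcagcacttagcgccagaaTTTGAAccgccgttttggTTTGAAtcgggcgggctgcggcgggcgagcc
The E2F motif was found in 9 of 29 matched promoters of the replication list and in 1.56% of all promoters. The CHR motif was found in 26 of 35 of the mitotic list and in 19.2% of all promoters, and CCAAT in 27 of the 35 and in 37.4%.

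Histone genes were lower as a family. Of 71 histone genes 65 were called lower and 1 higher, with a median of -1.77, beside -0.86 in P1, and their summed level was 30.2% of that of P0. *Hist1h2be* had 1941 in both P0 libraries and 177 and 325 in P2, and *Hist1h2bp* had 284 and 379 against 27.9 and 46.6. *Hist3h2ba* had 80.5 and 97.5 in P0, a P1 mean of 7.77 and 0.801 and 1.07 in P2. *H2afj*, a variant gene outside the large clusters, was the one called higher, from 20.9 and 22.3 to 59.6 and 70.0, and *Hist1h1c*, a linker histone, was not called (-0.33). Copies of histone genes are nearly identical in sequence, so how the reads were shared between them is uncertain. Of 16 genes of lamins and the nuclear envelope 2 (12.5%) were called higher and 7 (43.8%) lower, beside 14.0% and 14.4% of all genes. Genes of proteins that bind DNA or the envelope were among the falls. *Lmnb1*, lamin B1, went from 308 and 333 to 31.9 and 38.1, with a P1 mean of 74.4, *Tmpo*, a lamin-binding protein, from 1000 in both to 191 and 218, *Hmgb2* from 229 and 234 to 24.4 and 34.4 and *Hmgb1* from 1682 in both to 354 and 374. Of 31 genes of DNA methylation and Polycomb 17 were called lower and none higher (median -1.05). *Dnmt1*, the maintenance methyltransferase, had 506 and 538 in P0 and 151 and 160 in P2, *Dnmt3b* had 12.2 and 12.3 against 3.42 and 4.27, and *Ezh2*, the methyltransferase of Polycomb complex PRC2, had 72.7 and 73.4 against 19.7 and 20.9.

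Inhibitors of the cell cycle and p53 targets rose in 17 of 26 cases and fell in 1 (median 1.67, beside 1.83 in P1). *Cdkn2b*, which encodes the CDK4 and CDK6 inhibitor p15, had 0.214 in both P0 libraries, 35.9 and 48.5 in P1 and 66.2 and 106 in P2 (log2 fold change 6.13, standard error 0.25, adjusted p = 2.55e-05 by limma). *Cdkn1a*, which encodes p21, had 1.28 in both P0 libraries and 68.4 and 96.3 in P2, and *Ccng1*, a p53 target, had 43.5 and 49.9 against 1053 and 1331. *Pmaip1* and *Phlda3*, further targets, rose by 4.15 and 3.02. The call that went the other way was *Cdkn1c*, an imprinted CDK inhibitor, with 428 and 504 in P0 and 57.5 and 69.3 in P2, and *Cdkn1b* was not called (-0.95). *Trp53* itself, chosen after its values were seen, had 38.5 and 39.6 in P0 and 32.2 and 40.4 in P2. Of 24 secreted factors of senescent cells 14 were called higher and 6 lower (median 2.08). *Igfbp6* went from 0.214 and 0.321 to 26.8 and 48.6, *Ccl2*, a monocyte chemokine, from 0.962 and 1.39 to 35.0 and 64.0, and *Ereg*, an EGF family ligand, rose by 3.94, while *Vegfa*, on the same list, was not called. Several of its members are also on the protease list. In the list of TNF, caspase and BCL2 families 8 of 34 (23.5%) were called higher and 6 (17.6%) lower, with a median of -0.07. Of all genes 14.0% and 14.4% were so called. *Bcl2* fell from 78.2 and 80.5 to 7.75 and 13.8 and *Casp12* rose by 2.79.

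**Figure D4:**
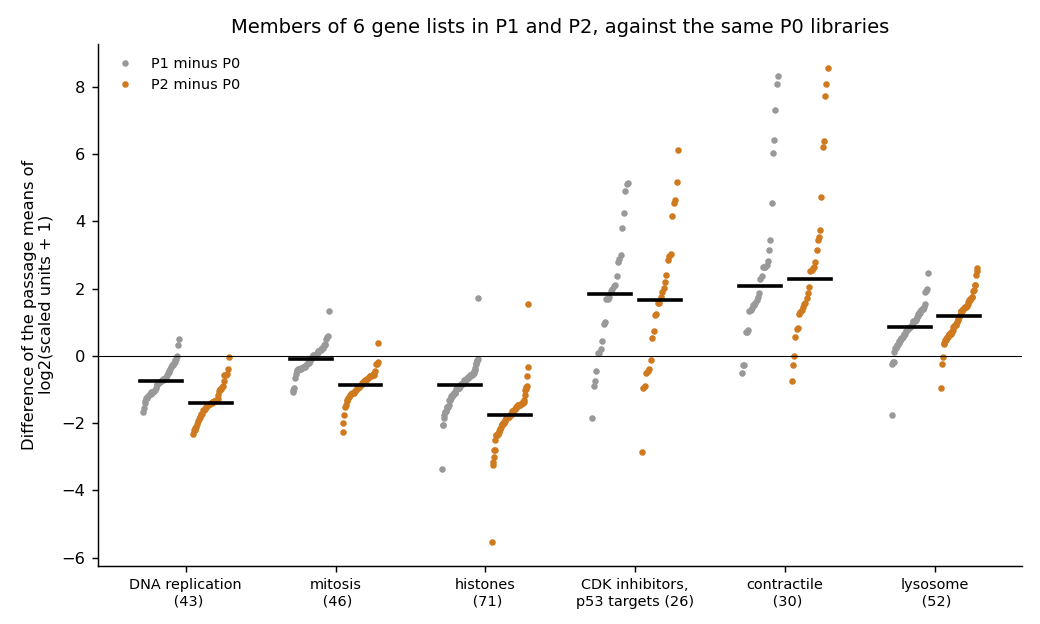
Log2 differences from P0 of the members of 6 gene lists (number measured in brackets) in P1 (grey) and P2 (orange), against the same P0 libraries, with black lines at the medians. The medians of replication genes lie at -0.75 and -1.41, of mitotic genes at -0.11 and -0.88, of histones at -0.86 and -1.77 and of CDK inhibitors and p53 targets at 1.83 and 1.67.

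Lysosomal genes rose in 28 of 52 cases (53.8%) and fell in none, against 14.0% and 14.4% of all genes. The log2 fold change was above 0 for 49 of them, and the median was 1.18. *Tpp1*, a peptidase, had 5.72 and 6.52 scaled units in P0 and 43.0 in both P2 libraries, *Asah1*, acid ceramidase, had 66.7 and 67.3 against 355 and 361, and *Ctsd*, cathepsin D, had 156 and 160 against 674 and 698. *Psap* and *Ctsb* were higher by less than 2-fold, at 0.71 and 0.72. The promoter of *Dpp7*, a dipeptidyl peptidase gene that rose by 1.97, holds TCACGTGA, the CLEAR motif bound by TFEB, 74 bases before its start.
*Dpp7*, chr2:25356374-25356431, minus strand: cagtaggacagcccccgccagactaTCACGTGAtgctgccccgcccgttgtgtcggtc
The motif was found in 5 of 35 matched promoters of the list and in 0.974% of all promoters. Among measured genes with a matched promoter it was in 2.76% of those called higher and 2.47% of those not called.

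Of 25 interferon-responsive and antigen presentation genes 13 were called higher and 3 lower (median 1.03). *Ifitm3*, a membrane protein that limits virus entry, had 8.39 and 11.7 scaled units in P0 and 128 and 185 in P2, *Ddx58*, the RNA sensor RIG-I, had 3.63 and 5.18 against 50.8 and 57.5, and *B2m*, the light chain of MHC class I, had 57.4 and 59.1 against 275 in both P2 libraries. *Tap2*, a peptide transporter, rose by 3.21. *Irf8*, a factor of blood cells, fell. The interferon-stimulated response element, searched as GAAANNGAAA on both strands, is in capitals in *Bst2*, where 2 matches overlap, *Gbp2* and *B2m*.
*Bst2*, chr8:71537562-71537627, minus strand: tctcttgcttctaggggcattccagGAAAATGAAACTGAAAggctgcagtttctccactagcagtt
*Gbp2*, chr3:142620579-142620638, plus strand: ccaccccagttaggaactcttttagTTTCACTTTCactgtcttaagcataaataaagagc
*B2m*, chr2:122147523-122147582, plus strand: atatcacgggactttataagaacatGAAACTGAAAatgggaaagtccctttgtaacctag
*Bst2*, tetherin, had 1.50 and 2.24 in P0 and 19.4 and 28.1 in P2, and *Gbp2*, a guanylate-binding protein, had 0.962 and 1.28 against 13.1 and 20.9. The motif was found in 8 of 18 matched promoters of the list and in 3.44% of all promoters.

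Lists of stress, metabolism and transport are read against the 28.4% of all genes that were called in either direction. Of 31 genes of endoplasmic reticulum folding 7 were called higher and 1 lower, with a median of 0.25. Known targets of the factor ATF4 were among the rises. *Trib3*, a pseudokinase, had 0.107 in both P0 libraries and 53.4 and 76.4 in P2, *Chac1*, which degrades glutathione, had 0.855 and 0.962 against 60.5 and 78.8, and *Asns*, asparagine synthetase, and *Ddit3*, CHOP, rose by 2.67 and 2.20. *Hspa5*, the main chaperone, fell by 1.33 from the shared highest value, and *Hsp90b1*, at 1326 in both P0 libraries and 1168 and 1504 in P2, was not called. Of 35 NRF2 targets and antioxidant genes 9 were called higher and 1 lower (median 0.46). *Mt1* and *Mt2*, metallothioneins, rose by 4.02 and 3.35 and *Hmox1*, heme oxygenase, from 13.1 and 14.4 to 77.8 and 124. In the glycolysis and hypoxia list 6 of 34 were called higher and 3 lower (median 0.17), of which 5 and 1 kept the call in every fit without 1 value. *Pfkp*, a phosphofructokinase, had 16.5 and 18.7 in P0 and 164 and 169 in P2. Of 31 genes of sterol and fatty acid synthesis 7 were called higher and none lower (median 0.39). Solute carriers were called higher in 34 of 162 and lower in 20. *Slc7a3*, a transporter of cationic amino acids, went from 0.855 and 1.07 to 31.3 and 32.5. Channels were called higher in 9 of 51, of which 5 kept the call without any single value, and lower in 21. *Trpv2*, a cation channel, rose by 4.14 and *Kcnj3*, a potassium channel, was listed at 0 in P2 after 15.4 and 15.9 in P0. Among 22 imprinted growth genes 2 were called higher and 8 lower, with *Dlk1* going from 50.5 and 55.5 to 0.588 and 0.641 and *Igf2* not called (0.67).

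Immediate early genes fell in 18 of 26 cases and rose in none (median -1.70, beside -1.82 in P1). All genes together were called lower in 14.4% and higher in 14.0%. *Fos*, the AP-1 factor, had 3425 in both P0 libraries, a P1 mean of 240.5 and 19.5 and 440 in P2 (log2 fold change -5.17, standard error 1.28, limma adjusted p = 0.0132). *Fosb* had 191 and 215 against 0.160 and 42.6, and *Egr1* 151 and 167 against 11.9 and 48.1. The libraries of the passages did not overlap in these genes, but the P2 libraries were further apart than those of most genes. Only 7 of the 18 kept their call in every fit without 1 value, and these genes were not among them. Without 1 value the log2 fold change of *Fos* lay between -7.38 and -2.96, and its call was lost without either P0 value. These genes are known to respond quickly to serum, growth factors and the handling of cells.

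Genes of basic cell functions were rarely called. Of 77 mitochondrial ribosomal protein genes 1 was called (*Mrps18b*, higher by 1.49) and 70 had a 95% interval within 2-fold in either direction. Of 79 genes of the respiratory chain and ATP synthase 74 had such an interval, with 1 higher, a call lost in a fit without 1 value, and 1 lower, and of 35 proteasome genes 32, with *Psmb10*, a subunit of the immunoproteasome, as the only call (1.43). None of the 6 measured cytosolic ribosomal protein genes was called. Of 42 ciliary genes 32 had such an interval, with *Kif3b* higher (1.02, and 0.997 without its higher P2 value, where the call was lost) and *Tctn3* lower (-1.43). The 317 numbered zinc finger genes were called in 10 cases higher and in 29 lower, below the 14.0% and 14.4% of all genes, and 222 had an interval within 2-fold. *Zbtb7b*, a factor known from T cells and skin, was an exception with 1.28 and 1.39 scaled units in P0 and 94.7 and 112 in P2, and *Zfp423* fell by 2.54. Of 15 genes used as references *B2m* was the only one called, and *Ppia* was lower by 0.92. The genes of at least 100 scaled units in both passages with intervals closest to 0 were *Gpr124*, *Ogdh*, *Psmd2*, *Rnf20*, *Setd3*, *Tmbim6*, *Tmed7* and *Yme1l1*. *Psmd2*, a proteasome subunit, had 595 and 614 in P0 and the same rounded values in P2, and *Ogdh*, a subunit of the oxoglutarate dehydrogenase, had 136 and 141 against 133 and 145.

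Neighbouring genes were called together at some places in the genome (mm10). Runs of at least 4 measured neighbours called in the same direction numbered 11 for higher genes, with 52 genes, and 10 for lower genes, with 73 genes. The longest held 21 genes, all of them histone genes except *Zfp184*, at chr13:21715763-22043676, and 3 further runs of 11, 8 and 6 genes lay in the histone cluster of the same chromosome. Chromosome 13 thus had 22.2% of its 465 measured genes called lower, against 14.4% of all genes. Among the runs of higher genes, 1 of 6 genes at chr6:15720661-17573980 held *Mdfic*, *Tfec*, *Tes*, *Cav2*, *Cav1* and *Met*, genes chosen after their values were seen. *Cav1* and *Cav2*, the caveolins, had 68.0 and 84.7 against 1507 and 1942, and 7.91 and 8.87 against 69.1 and 93.0, and *Met*, the receptor of hepatocyte growth factor, had 3.58 and 6.73 against 19.5 and 24.8. Another run of 6, at chr11:48826140-49096974, held the interferon-inducible GTPase genes *Irgm1*, *Tgtp1* and *Ifi47* with *Trim7* and the near-identical copies *9930111J21Rik1* and *9930111J21Rik2*, whose reads may be shared. *Trim7* had 0.534 and 0.588 against 14.6 and 21.9 and *Irgm1* had 13.6 and 15.5 against 79.4 and 95.5. A run of 6 at chr14:25842156-26534931, with *Anxa11* and *Slmap*, holds 3 copies of *Tmem254* and is uncertain for the same reason. A run of 6 lower genes at chr11:98992943-100261029 joined *Top2a* and *Igfbp4*, whose call was lost in 3 of 4 fits without 1 value (-1.88 to -0.96), with the keratin genes *Krt14*, *Krt15* and *Krt17*, and the run *Dlx1as*, *Dlx1*, *Dlx2* and *Itga6* at chr2:71516454-71820254 was chosen in the same way and includes an antisense gene whose reads cannot be told apart from those of its partner without strand.

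The share of promoters with a motif is given by call as a description, with no test. A promoter was matched for 7188 genes, of which 1013 were called higher, 945 lower and 5230 not called. The CArG box was in 2.86% of the promoters of higher genes, 1.38% of lower and 0.918% of genes not called, and GGAATG in 157 of the higher, 113 of the lower and 565 of the genes not called. TGANTCA, the AP-1 motif, was in 7.31%, 4.55% and 3.52%, and in none of the 20 matched promoters of the immediate early list. The E2F motif was in 1.78%, 5.61% and 3.10%, CCAAT in 35.7%, 43.8% and 40.0%, and the CHR motif in 11.9%, 15.9% and 13.3%. The CLEAR motif was in 2.76%, 0.847% and 2.47%, and the interferon-stimulated response element in 3.26%, 2.43% and 2.52%. GACCACCCA, the GLI motif, was in none of 5 matched promoters of the Hedgehog list. ATCACNCCAC, the SRE motif, was in none of 15 of the sterol list. The other motifs not drawn, CRE, LEF/TCF and ERSE, were in 2 of 20, 3 of 19 and 7 of 23 promoters of their lists. The promoters of the 3 groups had median GC contents of 61.3%, 63% and 61.7%, against 52.7% over all promoters of the table. A match is a description of the letters and does not show that a factor binds there. Each motif was paired with a list for what is known of its genes. A high share in the paired list is therefore partly built in and is no result of the P2 and P0 values.

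**Figure D5:**
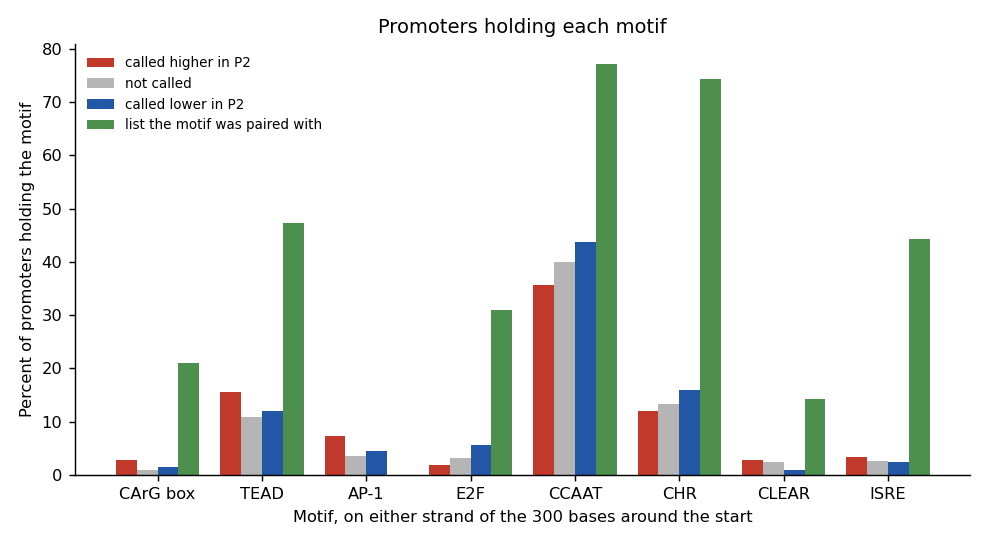
Percent of promoters that hold each of 8 motifs, for genes called higher in P2 (red), not called (grey) and called lower (blue), and for the gene list the motif was paired with (green). The lists stand above the 3 groups for every motif shown except AP-1, which none of the 20 promoters of its list held.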

How the data were processed

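Total RNA of duplicate P0, P1 and P2 libraries (TruSeq) was quantified by the submitters with RSEM 1.1.21, a version taken from the submitters' processing notes. The deposited values are scores that the authors had normalized with EDASeq for GC content and by full quantiles, given per passage as a mean and an error, so counts and depth are unknown and precision is limited by 2 libraries a group. Quantile normalization gives all libraries the same distribution and hides a change in total RNA. The library values were recovered as the mean plus and minus the error times the square root of 2, and expressed per 1000000 of the total of their passage. No per-sample column was left unused. Of the gene names, 18 were restored from the reference table. limma 3.58.1 (trend) in R 4.3.3 was fitted to log2(scaled value + 1) over all 6 libraries (residual degrees of freedom 3, prior 3.06) and tested on simulated data. Python 3.11.15 with numpy 2.4.6, pandas 2.3.3 and matplotlib 3.10.9 made the other values and the plots.

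The comparison, the 57 gene lists and the 13 motifs were chosen with earlier results of these data known. Named genes were the 12 largest rises and 12 largest falls among genes of at least 10 scaled units in a passage, up to 6 called genes (by size of change) and 4 uncalled genes (by level) per list, genes in the paper's Results text, the 8 steadiest genes, the genes of the 6 longest runs and genes whose promoter holds the motif of their list. Promoters are RefSeq windows of GRCm38.p6, of 250 bases before and 50 after a start, within 200 bases of the deposited start. Alternatives were another pseudocount, filters, other thresholds, other fits and each value left out. Some genes are not reported here.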

Additional observations from a re-analysis of the deposited data

How the results depend on the processing

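No paired analysis was possible because the deposited mean and error of a passage do not show which of the recovered values belongs to which replicate. For the same reason a value left out is the lower or the higher of a passage, gene by gene. Without 1 such value genes called higher in P2 than in P0 numbered 1382 to 1831 and genes called lower in P2 than in P0 1412 to 1922, and 1314 and 1349 kept their call in all 4 of these fits. The counts moved most with the call rule itself. At any fold 3596 genes were higher and 3652 lower, at 4-fold or more 577 and 581, and with limma's treat test against a 2-fold change 828 and 818. With treat, 18 of the 24 contractile genes and 4 of the 18 immediate early genes kept their call. Of 565 named genes 39 lost their call under an alternative other than treat, and no gene that was called in either fit reversed its direction. Uncalled genes could change sign, as *Cxcl1* (-3.56 to 0.13) and *Kcnq1ot1* (-1.25 to 0.49) did without 1 value. Of those named above, *Bdnf*, *Crabp1*, *Egr1*, *Fos*, *Fosb*, *Igfbp4*, *Kif3b* and *9930111J21Rik2* lost theirs without 1 value, *Fosb* also with only the P0 and P2 libraries in the fit and with the values as deposited, and *Dnmt3b*, *Ifi47*, *Psmb10* and *Kif3b* with a pseudocount of 5, while *Bmp4*, *Col5a2* and *Ppia* gained a call without 1 value. With 2 libraries a passage and an unknown depth, a change of a gene at a few scaled units cannot be set against counting error.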
